A study of Zea mays with 18 samples.

Results

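RNA from the quiescent centre of maize roots was compared between the ZmPgb1.1 overexpressing line, Pgb1.1S, and wild type, both after 12 h of hypoxia. The quiescent centre is the small group of slowly dividing cells at the root tip around which the stem cells of the root are arranged. The 2 groups, written S_12h and WT_12h, hold 3 libraries each, which are 6 of the 18 libraries of the series. S_12h libraries come from seedlings that overexpress the phytoglobin gene ZmPgb1.1, and WT_12h libraries from seedlings without this change. Roots of 5-day-old seedlings of both groups stood for 12 h in liquid Murashige and Skoog medium gassed with 4% oxygen, so hypoxia is shared by both groups, and the quiescent centres were then dissected by hand after removal of the root cap. The other libraries are S_0h, WT_0h and, for the line Pgb1.1A in which ZmPgb1.1 is down-regulated, A_12h and A_0h, where 0 h means normoxia. Which promoter drives the construct, how many transformation events it represents and how many roots entered a library is not stated in the labels. There is 1 overexpressing line, so the effect of the transgene and any other difference between that line and wild type cannot be told apart.

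Phytoglobins are plant hemoglobins that bind oxygen very tightly and convert nitric oxide to nitrate. When oxygen is low, plant cells move from respiration to fermentation, nitric oxide accumulates, and phytoglobins that remove it are known to modify ethylene signalling and cell survival in roots. The comparison asks which transcripts differ between hypoxic quiescent centres with more ZmPgb1.1 and hypoxic quiescent centres of wild type.

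The deposited table names genes by ID, and 0 of its 28724 IDs could be matched to a gene name, because the available name table was made for a different assembly. The counts of ZmPgb1.1, markers of the quiescent centre and its neighbours, and 35 lists of genes by function (among them fermentation, sucrose breakdown and auxin transport) could therefore not be looked up, and neither the line nor the tissue was checked against its defining genes. Genes are given by ID, without names or functions.

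The 6 libraries held 48130771 to 89759585 counts each and 21218 to 22120 genes with at least 1 count. The labelled replicates were not equally alike. S_12h replicates 1 and 2 had a Spearman correlation of 0.9977 over the genes tested, against 0.9356 and 0.9351 for replicate 3 with each of them. WT_12h replicates 1 and 2 correlated at 0.9966, against 0.9813 and 0.9797 for replicate 3. The nearest libraries of S_12h replicate 3 were A_0h replicates 1 and 2, and those of WT_12h replicate 3 were S_0h replicates 1 and 2. The same held once in every group: A_12h replicate 3 was nearest to S_12h replicates 1 and 2, A_0h replicate 3 to A_12h replicates 1 and 2, S_0h replicate 3 to WT_0h replicates 1 and 3, and WT_0h replicate 2 to WT_12h replicates 1 and 2. These are the 6 libraries whose 2 nearest libraries both carry 1 other label, and they are called the 6 displaced libraries here. Whether labels were exchanged was not tested, and every group mean below, those at 0 h and of line A included, holds 1 such library. The counts and the genes named are therefore given with all 3 libraries a side and also without replicate 3 of both groups. Removing a dissimilar library reduces the spread within its own group by construction, so larger numbers without it are no separate support. The SE from the fit, which covers all groups, still rose for some of the genes named below. Whether replicates were grown and dissected separately is unstated, and p-values describe the spread among the libraries at hand, which may be technical. In the fits over all groups, the spread of a gene is estimated from line A and the 0 h groups as well. Each of these groups holds 1 displaced library, so p-values for S_12h against WT_12h do not describe the spread of these 2 groups alone.

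With all libraries, 2370 of 20945 genes tested (11.3%) differed between S_12h and WT_12h at an adjusted p under 0.05 (edgeR quasi-likelihood test, Benjamini-Hochberg adjustment over all genes), 1300 of them (6.21%) higher and 1070 (5.11%) lower in S_12h. All 3 S_12h libraries lay on one side of all 3 WT_12h libraries for 26.9% of tested genes. Without replicate 3 of both groups, 6023 of 21200 genes (28.4%) were called, 3132 (14.8%) higher and 2891 (13.6%) lower. Of the genes called with all libraries, 2136 were called in the same direction in both versions, 234 were called only with all libraries and 0 changed direction, while 3879 of the 20943 genes tested in both versions were called only without replicate 3 of both groups. The count of 2370 was 586, 529 and 5990 without S_12h replicate 1, 2 or 3, and 442, 353 and 2316 without WT_12h replicate 1, 2 or 3. The count of 6023 was 2395 and 2196 without S_12h replicate 1 or 2 as well, and 2428 and 1557 without WT_12h replicate 1 or 2. Without the 6 displaced libraries, 12298 of 21030 genes (58.5%) were called, 6334 (30.1%) higher and 5964 (28.4%) lower in S_12h, and all 1572 genes described next were among them. Called in both versions, without overlap between the 3 libraries a side, and at a mean of at least 10 CPM (a gene's counts scaled to a library of 1000000) in the higher group were 1572 genes, 12.6% of the 12440 genes that reached this level. These are the abundant genes that separated hypoxic quiescent centres of line S from those of wild type, and they are called separating genes here. Since they were chosen by this contrast, their fold changes are a description. Among genes under 10 CPM the same criteria were met by 392 of 8503 (4.61%). The lowest level inside the limit was 10.1 CPM and the highest outside it 9.97 CPM.

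**Figure D1:**
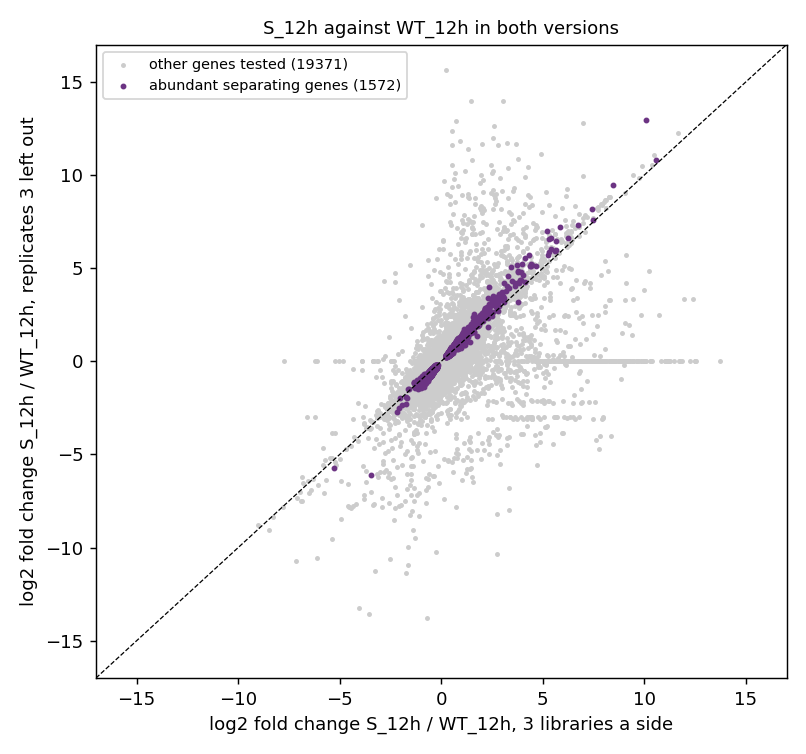
The log2 fold change of S_12h over WT_12h for each gene tested in both versions, with 3 libraries a side on the horizontal axis and without replicate 3 of both groups on the vertical axis; the dashed line marks equal values. The 1572 abundant separating genes, which had to be called in both versions, have the same sign on both axes, and the other 19371 genes lie in all quadrants.

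Of the separating genes, 745 (5.99% of abundant genes) were higher and 827 (6.65%) were lower in S_12h. The genes that were higher differed by more. With all libraries their median log2 fold change was 0.70, against -0.43 for the genes that were lower and 0.03 for all genes tested. At least a 2-fold difference was found in 253 of the higher and 37 of the lower genes. A log2 fold change of 4 or more was reached by 26 of the higher genes, and by 1 of the lower genes. The lower genes were the more abundant ones, with a median of 65.8 CPM in WT_12h, while the higher genes had a median of 32.8 CPM in S_12h. In the range of 100 to 1000 CPM, 72 separating genes were higher and 280 were lower, and above it 3 were higher and 9 were lower. Between 10 and 30 CPM the order turned, with 325 higher and 176 lower. How many of all abundant genes lie in each range was not counted, so these counts give no share called by level. The median log2 fold changes without replicate 3 of both groups were 0.86 for the higher and -0.51 for the lower genes.

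Summed over genes, the size of the difference varied between libraries. The 745 higher genes added up to 50222, 50283 and 30677 CPM in S_12h replicates 1, 2 and 3, against 21664, 20868 and 23256 CPM in WT_12h. That all S_12h libraries lie above all WT_12h libraries is fixed by the choice of genes, and S_12h replicate 3 lies closer to WT_12h than to the other S_12h libraries. The 827 lower genes added up to 79555, 79702 and 87995 CPM in S_12h, against 112935, 113473 and 104272 CPM in WT_12h. Here S_12h replicate 3 and WT_12h replicate 3 both lie on the inner side of their groups. A CPM sum describes a share of the counts, and fewer cells of a type and less RNA per cell cannot be told apart in bulk samples.

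Of the separating genes with at least a 2-fold difference, the most abundant in S_12h was Zm00001d021788.RefGen_V4. Its level was 2891, 2870 and 289 CPM in S_12h replicates 1, 2 and 3, against 153, 160 and 169 CPM in WT_12h. Replicates 1 and 2 of S_12h stand far above every WT_12h library, and replicate 3 is only slightly above them. The group means were 2017 ± 1496 CPM in S_12h and 161 ± 7.77 CPM in WT_12h (SD, n = 3 each), a 12.5-fold ratio. The log2 fold change was 3.65 (SE 0.96, edgeR adjusted p = 0.0295) with all libraries and 4.20 (SE 1.09, edgeR adjusted p = 0.0149) without replicate 3 of both groups, where the ratio of means was 18.4. This call depended on the fit. It was lost in 7 of 13 alternatives with all libraries, with an edgeR adjusted p of 0.106 in a fit of these 2 groups alone and of 0.0551 with the replicate number as a block. Leaving out S_12h replicate 1 or 2 gave 0.0868 or 0.0854, and leaving out WT_12h replicate 1, 2 or 3 gave 0.109, 0.115 or 0.061. DESeq2 is not among the alternatives for this gene in either version. Leaving out S_12h replicate 3 kept the call, and so did leaving out the 6 displaced libraries (edgeR adjusted p = 8.32e-11). Without replicate 3 of both groups, a fit of these 2 groups alone gave an edgeR adjusted p of 1.53e-17. The fits over all groups include A_12h, whose libraries differ widely for this gene. In the version without replicate 3 of both groups it was lost in 3 of 11 alternatives, which left out S_12h replicate 2 (0.0506), WT_12h replicate 1 (0.0965) or WT_12h replicate 2 (0.103). At 0 h the gene was at 161 ± 16.4 CPM in S_0h and 146 ± 16.3 CPM in WT_0h (SD, n = 3 each). In line A it was at 179, 186 and 2879 CPM in A_12h and at 282, 277 and 180 CPM in A_0h, so that of these 6 libraries A_12h replicate 3 alone reached the level of S_12h replicates 1 and 2.

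The second gene by abundance was Zm00001d028998.RefGen_V4. It measured 1962, 2048 and 1705 CPM in S_12h, against 839, 805 and 854 CPM in WT_12h. The S_12h libraries lie close to each other and far from WT_12h, including replicate 3. The means were 1905 ± 178 CPM in S_12h and 832 ± 25.3 CPM in WT_12h (SD, n = 3 each), a 2.29-fold ratio. The log2 fold change was 1.19 (SE 0.07, edgeR adjusted p = 2.0e-06) with all libraries and 1.29 (SE 0.07, edgeR adjusted p = 3.21e-06) without replicate 3 of both groups. It was called in 14 of 14 alternatives, with log2 fold changes of 1.14 to 1.29 and a largest adjusted p of 0.0408. At 0 h no such difference was seen, with 840 ± 36.7 CPM in S_0h and 853 ± 36.0 CPM in WT_0h (SD, n = 3 each). In line A the level was 1919 ± 52.4 CPM in A_12h and 1730 ± 73.6 CPM in A_0h (SD, n = 3 each), at both times near that of S_12h. A_0h replicates 1 and 2, the nearest libraries of S_12h replicate 3, were at 1736 and 1654 CPM. Whether the level of S_12h replicate 3 reflects line S or its likeness to A_0h cannot be told apart.

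The most abundant of the lower genes with at least a 2-fold difference was Zm00001d002132.RefGen_V4. It measured 156, 151 and 152 CPM in S_12h, against 429, 436 and 523 CPM in WT_12h. The 3 S_12h libraries are nearly equal, and all 3 WT_12h libraries lie well above them. The means were 153 ± 2.94 CPM in S_12h and 463 ± 52.5 CPM in WT_12h (SD, n = 3 each), so the level was 3.03-fold higher in WT_12h. The log2 fold change was -1.60 (SE 0.21, edgeR adjusted p = 0.00201) with all libraries and -1.49 (SE 0.27, edgeR adjusted p = 0.00325) without replicate 3 of both groups. It was called in 14 of 14 alternatives, with an adjusted p of at most 0.0162. At 0 h it was at 477 ± 58.0 CPM in S_0h and 416 ± 12.9 CPM in WT_0h (SD, n = 3 each). Line A was at 261, 263 and 159 CPM in A_12h and 154, 147 and 260 CPM in A_0h, below every WT_12h library. S_12h replicate 3 was thus also at the level of A_0h replicates 1 and 2, its nearest libraries.

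Zm00001d026413.RefGen_V4 was next among the lower genes. It measured 161, 161 and 116 CPM in S_12h, against 322, 323 and 344 CPM in WT_12h. Replicate 3 of S_12h is farther from WT_12h than the other S_12h libraries. The means were 146 ± 25.9 CPM in S_12h and 330 ± 12.6 CPM in WT_12h (SD, n = 3 each), so the level was 2.26-fold higher in WT_12h. The log2 fold change was -1.17 (SE 0.23, edgeR adjusted p = 0.00936) with all libraries and -1.0 (SE 0.28, edgeR adjusted p = 0.0191) without replicate 3 of both groups. All 14 alternatives with all libraries kept this call. In the version without replicate 3 of both groups it was lost when any 1 of the 4 remaining libraries was also left out, with adjusted p up to 0.0927. At 0 h the gene was at 350 ± 12.5 CPM in S_0h and 336 ± 18.6 CPM in WT_0h (SD, n = 3 each). In line A it was at 233, 239 and 156 CPM in A_12h and at 120, 115 and 230 CPM in A_0h. S_12h replicate 3 was thus at the level of A_0h replicates 1 and 2, its nearest libraries.

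**Figure D2:**
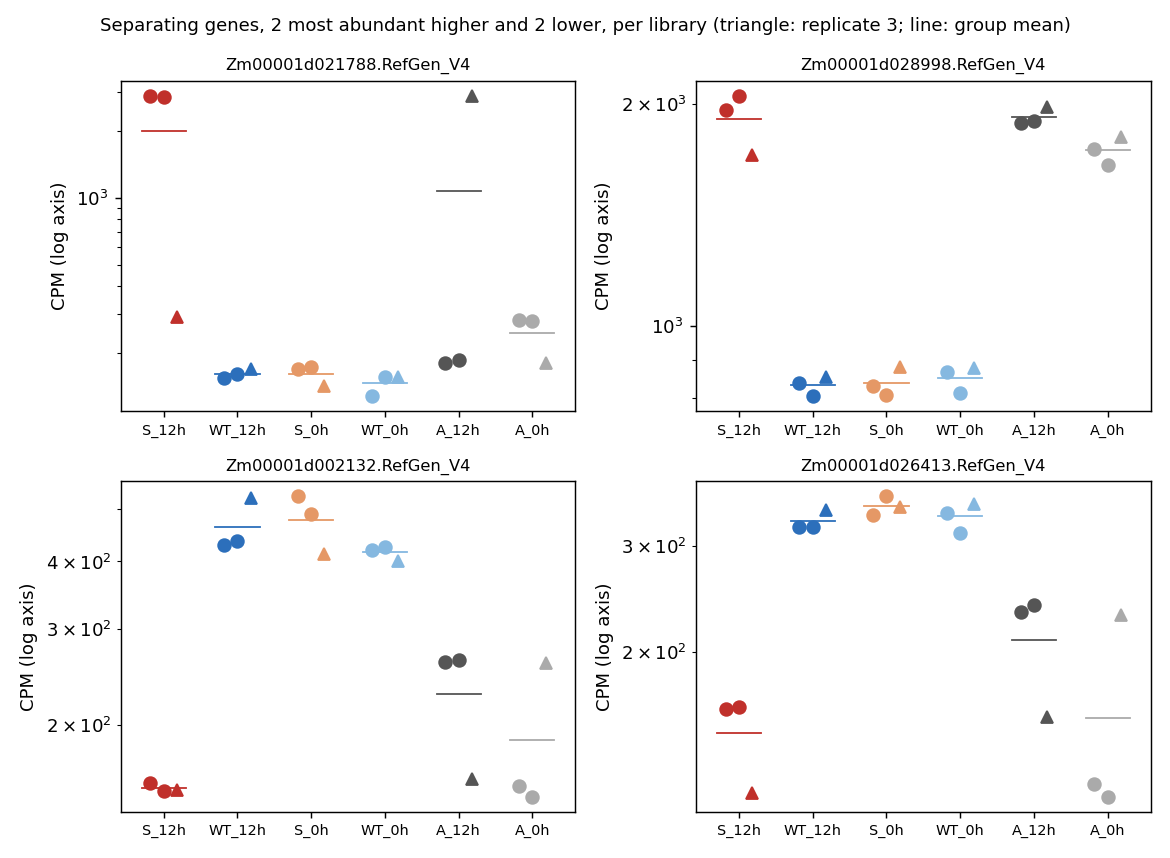
CPM on a log axis of the 2 most abundant higher and the 2 most abundant lower separating genes with at least a 2-fold difference, in each of the 18 libraries by group; triangles are replicate 3, other replicates are circles, and short lines are group means. Every gene shown separates S_12h from WT_12h in all libraries by the choice of genes. Replicate 3 of S_12h holds only 289 CPM of Zm00001d021788.RefGen_V4, close to WT_12h.

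These 4 genes show how differently replicate 3 could lie within genes that separate the groups. For each separating gene a library was placed on the log2 scale between the mean of S_12h replicates 1 and 2, set to 1, and the mean of WT_12h replicates 1 and 2, set to 0. S_12h replicate 3 had a median position of 0.53 over the higher and 0.73 over the lower genes. WT_12h replicate 3 had median positions of 0.15 and 0.22. S_12h replicate 3 lay between 0.75 and 1.25, near its own group, in 455 of 1572 genes (28.9%), and between 0.25 and 0.75 in 825 (52.5%). It lay under 0.25, near WT_12h, in 139 (8.84%) and beyond 1.25 in 153 (9.73%). Of the 139 near WT_12h, 113 were higher genes and 26 were lower genes. The choice of genes whose groups do not overlap fixes that replicate 3 lies on the side of its group, and these positions are a description.

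Replicate 3 of both groups lay near their own group, S_12h replicate 3 within 0.75 to 1.25 and WT_12h replicate 3 within 0.25 of its position 0, in 179 genes (11.4% of the separating genes). Of these, 61 were higher and 118 were lower in S_12h, and 12 and 6 of them differed by at least 2-fold. Zm00001d028998.RefGen_V4 and Zm00001d002132.RefGen_V4 are among them. Over the separating genes, S_12h replicates 1 and 2 differed from each other by a median of 0.06 and WT_12h replicates 1 and 2 by 0.07 on the log2 scale. S_12h replicate 3 differed from its pair by a median of 0.25 and WT_12h replicate 3 by 0.14, while the pairs differed from each other by 0.62. Over all 12440 abundant genes the corresponding values were 0.06, 0.07, 0.36, 0.13 and 0.31, so that S_12h replicate 3 was farther from its own pair than that pair was from the WT_12h pair.

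**Figure D3:**
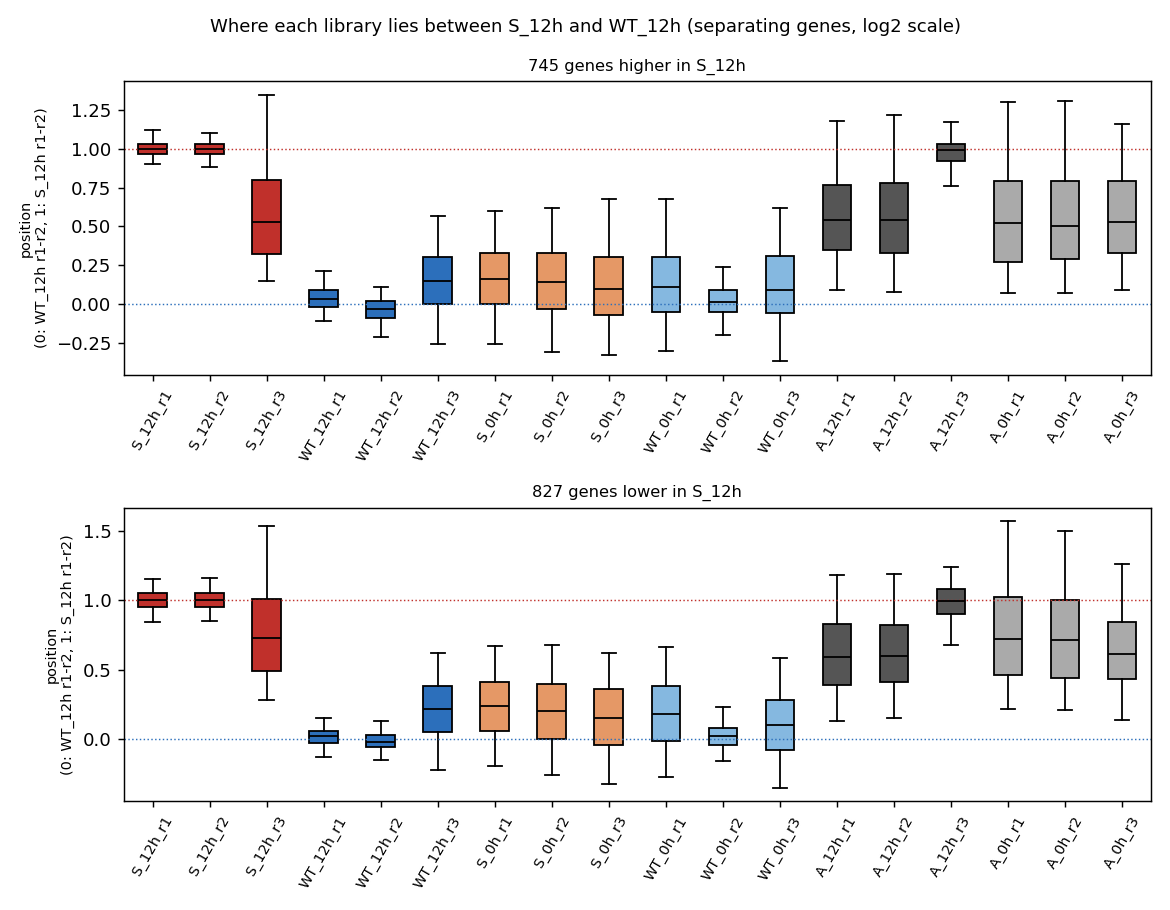
Position of each of the 18 libraries between S_12h replicates 1 and 2 (1) and WT_12h replicates 1 and 2 (0) on the log2 scale, over the 745 separating genes that were higher and the 827 that were lower in S_12h; boxes show quartiles and medians, whiskers the 5th and 95th percentiles. S_12h replicate 3 and the A libraries other than A_12h replicate 3 lie between the groups, A_12h replicate 3 lies at 0.99, and the 0 h libraries of S and WT lie near 0.

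The libraries of the other groups were placed on the same scale. Their levels were not compared in choosing the genes, but they entered the fit that gave the filter and the spread. The choice also bears on libraries that resemble those it used. S_12h replicate 3, which had to lie on the S_12h side, correlated at 0.9972 and 0.9971 with A_0h replicates 1 and 2. A_12h replicate 3 correlated at 0.9974 and 0.9973 with S_12h replicates 1 and 2. The places of these A libraries are therefore no separate support. S_0h and WT_0h libraries had median positions between 0.01 and 0.24. In line A, A_12h replicates 1 and 2 and all A_0h libraries had medians between 0.50 and 0.72, and A_12h replicate 3 had 0.99 for both the higher and the lower genes. Counted by gene, A_12h replicate 3 reached the S_12h side in 1390 of 1572 genes (88.4%) and the WT_12h side in 2 (0.127%). The other 5 A libraries were on the S_12h side in 774 to 833 genes and on the WT_12h side in 115 to 142. The 6 libraries of S_0h and WT_0h were on the S_12h side in 13 to 85 genes and on the WT_12h side in 880 to 1334. These counts compare libraries, and what sets A_12h replicate 3 apart from its group was not tested.

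Whether the difference between the lines was present before hypoxia was asked in S_0h and WT_0h. Their difference was not used in choosing the genes, although these libraries shared the estimate of spread behind the choice. WT_12h replicate 3, which had to lie on the WT_12h side, correlated at 0.998 and 0.9968 with S_0h replicates 1 and 2. WT_0h replicate 2 correlated at 0.9976 and 0.9972 with WT_12h replicates 2 and 1. The choice is therefore not independent of the levels at 0 h. By edgeR with all libraries, 0 of 20945 genes (0%) were called in S_0h against WT_0h, and 355 were at an unadjusted p under 0.05. By limma-voom the count was 0 and by DESeq2 it was 15. Among the separating genes, 27 of 1572 had an unadjusted p under 0.05 at 0 h, 1.72%, against 1.69% of all genes tested. Both shares lie under the share of 0.05 that this threshold would pass with no difference, so the test was conservative. Their likeness can therefore not show that the lines were alike at 0 h. Whether the displaced libraries of S_0h and WT_0h caused this was not tested. The S_0h and WT_0h groups did not overlap in 147 of the separating genes (9.35%), against 9.33% of all genes tested. The median log2 fold change of S_0h over WT_0h was 0.05 for the 745 higher and -0.05 for the 827 lower genes, against 0 for all genes tested. It had the sign of the 12 h difference in 487 of the higher and 606 of the lower genes. In 1233 of the 1572 genes (78.4%) the difference at 0 h was less than 0.25 times that at 12 h, a comparison that the choice of genes by their 12 h difference favours. Only 9 separating genes had a 2-fold or larger fitted difference at 0 h. Without the 6 displaced libraries, which leaves 2 libraries in each group, 4232 of 21030 genes (20.1%) were called between S_0h and WT_0h, 2062 (9.81%) higher and 2170 (10.3%) lower in S_0h, among them 345 of the separating genes (21.9%), 225 of these in the direction of the 12 h difference.

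**Figure D4:**
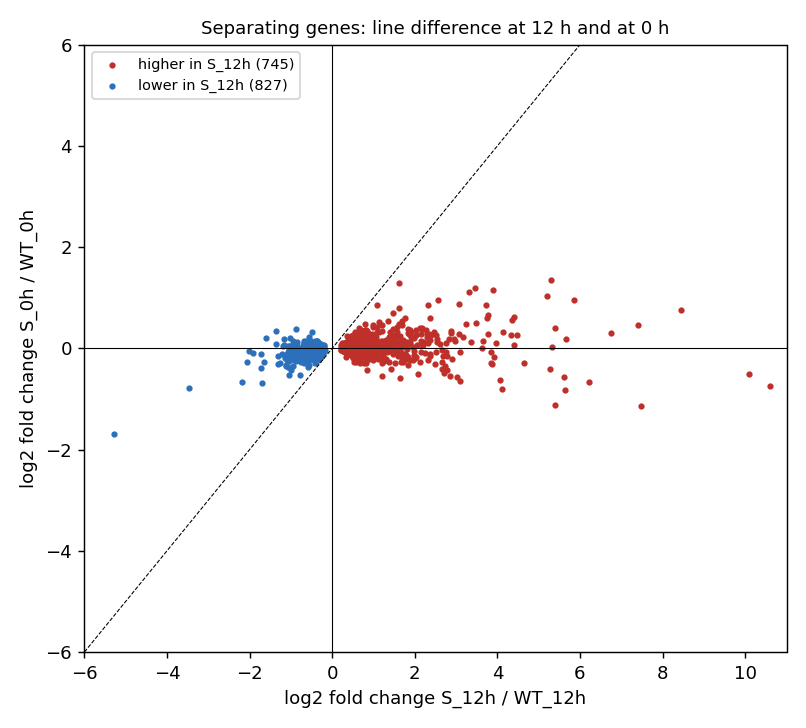
The log2 fold change of S_12h over WT_12h on the horizontal axis and of S_0h over WT_0h on the vertical axis for each of the 1572 separating genes, with equal values on the dashed line. The genes were chosen on the horizontal axis, and on the vertical axis their medians are 0.05 and -0.05.

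The dependence of the line difference on treatment was tested directly, as the S against WT difference at 12 h minus that at 0 h. With all libraries this passed the threshold in 22 of 20945 genes (0.105%), 18 (0.0859%) with a more positive and 4 (0.0191%) with a more negative difference at 12 h. Of the 22 genes, 14 are separating genes, which is 0.891% of the separating genes. Of the 14, 10 were higher in S_12h, with differences between the log2 fold changes of 0.57 to 2.75, and 4 were lower. The choice of separating genes by their 12 h difference favours this overlap and its direction. The count of 22 was 2, 2 and 1211 without S_12h replicate 1, 2 or 3, and 3, 3 and 12 without WT_12h replicate 1, 2 or 3. Leaving out S_0h replicate 1, 2 or 3 gave 2, 4 and 55, and leaving out WT_0h replicate 1, 2 or 3 gave 2, 43 and 4. Zm00001d028998.RefGen_V4 had the smallest p of all genes, with a difference between the log2 fold changes of 1.22 (SE 0.10, edgeR adjusted p = 0.000146). It was called in all 21 alternatives run for this contrast, with values of 1.16 to 1.38. The 4 genes with a negative difference were Zm00001d002132.RefGen_V4 (-1.79, SE 0.29, edgeR adjusted p = 0.0302), Zm00001d033905.RefGen_V4 (-1.0, SE 0.16, adjusted p = 0.0302), Zm00001d003184.RefGen_V4 (-0.98, SE 0.15, adjusted p = 0.0302) and Zm00001d040390.RefGen_V4 (-0.56, SE 0.10, adjusted p = 0.0375), named because there were only 4 of them and after their values were seen. All 4 are separating genes. Zm00001d003184.RefGen_V4 averaged 21.9 CPM in S_12h and 43.4 CPM in WT_12h, and 39.9 CPM in both S_0h and WT_0h. Zm00001d033905.RefGen_V4 averaged 92.9 CPM in S_12h and 195 CPM in WT_12h, while S_0h averaged 173 and WT_0h 181 CPM. Zm00001d040390.RefGen_V4 averaged 78.0 CPM in S_12h and 115 CPM in WT_12h, while S_0h averaged 119 and WT_0h 118 CPM.

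The difference of differences did not reach the threshold for Zm00001d021788.RefGen_V4 (3.51, SE 1.26, edgeR adjusted p = 0.241) or Zm00001d026413.RefGen_V4 (-1.23, SE 0.32, edgeR adjusted p = 0.141). The call of Zm00001d002132.RefGen_V4 was lost in 10 of 21 alternatives, with adjusted p up to 0.126. Without replicate 3 of both 12 h groups, 865 of 21200 genes (4.08%) were called, 488 (2.3%) more positive and 377 (1.78%) more negative at 12 h, and 513 of them were separating genes. Without the 6 displaced libraries, 9193 of 21030 (43.7%) were called, 4727 (22.5%) more positive and 4466 (21.2%) more negative, and 1500 of them were separating genes. All 513 and all 1500 had the direction of the 12 h difference, which the choice of genes favours.

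With on set at 10 CPM or more and off at 3 counts or fewer, 0 genes were on in every library of one 12 h group and off in every library of the other. A level of 3 counts was 0.0339 to 0.0627 CPM in these libraries, which covers counting error only. Without replicate 3 of both groups, 11 genes were on in S_12h and off in WT_12h, and 3 were on in WT_12h and off in S_12h. Replicate 3 of each group often lay elsewhere. Of the 11 genes, 5 were at 10 CPM or more in WT_12h replicate 3, and 3 were at 10 CPM or more in S_12h replicate 3. The 3 that were also off in WT_12h replicate 3 are given here by ID, chosen after their values were seen. Zm00001d022081.RefGen_V4 was at 13.9, 14.8 and 4.93 CPM in the S_12h libraries and had 0, 0 and 2 counts in WT_12h. Zm00001d021168.RefGen_V4 was at 12.9, 11.9 and 0.334 CPM in S_12h and had 2 counts in each WT_12h library. Zm00001d026041.RefGen_V4 averaged 12.3 ± 1.76 CPM in S_12h replicates 1 and 2 (SD, n = 2) and was at 0.397 CPM in replicate 3, with 1 count in WT_12h replicates 1 and 2 together and 0 in replicate 3. These genes are high in S_12h replicates 1 and 2 and lower in replicate 3. The edgeR adjusted p without replicate 3 of both groups was 0.0188 for Zm00001d022081.RefGen_V4, 0.0235 for Zm00001d021168.RefGen_V4 and 0.0784 for Zm00001d026041.RefGen_V4, the last of which did not pass. The first of these is also one of the separating genes, and both calls were lost on leaving out a further library, whichever of the 4 it was, with adjusted p of 0.0523 to 0.139. By limma-voom the adjusted p of Zm00001d022081.RefGen_V4 was 0.261, against 0.0249 for Zm00001d021168.RefGen_V4 and 0.0171 for Zm00001d026041.RefGen_V4. A fit of replicates 1 and 2 of these 2 groups alone called all 3 genes. Its edgeR adjusted p was 3.63e-11 for Zm00001d022081.RefGen_V4, 1.75e-11 for Zm00001d021168.RefGen_V4 and 6.44e-11 for Zm00001d026041.RefGen_V4. The p-values thus depended on which other libraries shared the fit, and rest on 2 libraries a side. With all libraries the edgeR adjusted p was 0.0126 for Zm00001d022081.RefGen_V4, 0.0294 for Zm00001d021168.RefGen_V4 and 0.0634 for Zm00001d026041.RefGen_V4.

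The 3 genes that were on in WT_12h replicates 1 and 2, also named after their values were seen, had 0 counts in S_12h replicates 1 and 2. Zm00001d034688.RefGen_V4 was at 0, 0 and 31.9 CPM in S_12h, against 22.6, 27.3 and 0.908 CPM in WT_12h. Replicate 3 of each group thus runs against the other libraries, and without both its edgeR adjusted p was 0.06. Zm00001d031518.RefGen_V4 was at 0, 0 and 4.45 CPM in S_12h, against 21.1, 23.3 and 6.78 CPM in WT_12h. Against the floor of 3 counts per library, its level in S_12h replicates 1 and 2 was at least 445-fold lower than in WT_12h replicates 1 and 2, and the edgeR adjusted p over these libraries was 0.00687. Without S_12h replicate 1 as well it was 0.0508. Zm00001d030105.RefGen_V4 was at 0, 0 and 2.47 CPM in S_12h, against 16.4, 18.9 and 3.92 CPM in WT_12h. By the same floor it was at least 353-fold lower in S_12h replicates 1 and 2 (edgeR adjusted p = 0.00865), a call lost without S_12h replicate 1 or 2 (adjusted p = 0.0592 and 0.0574). By limma-voom these calls were lost too, with adjusted p of 0.209 for Zm00001d031518.RefGen_V4 and 0.214 for Zm00001d030105.RefGen_V4. A fit of replicates 1 and 2 of these 2 groups alone called all 3 genes. Its edgeR adjusted p was 3.13e-11 for Zm00001d034688.RefGen_V4, 7.95e-12 for Zm00001d031518.RefGen_V4 and 3.13e-11 for Zm00001d030105.RefGen_V4. With all libraries none of the 3 genes was called by edgeR, with adjusted p of 0.863 for Zm00001d034688.RefGen_V4, 0.152 for Zm00001d031518.RefGen_V4 and 0.116 for Zm00001d030105.RefGen_V4. All 3 genes had 0 counts in A_12h replicate 3.

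A further 23 genes were off in replicates 1 and 2 of both groups and at 10 CPM or more in S_12h replicate 3, and 22 of these were at 10 CPM or more in both A_0h replicates 1 and 2. In WT_12h replicate 3 there were 2 genes of this kind. None of the 23 passed the threshold with all libraries by edgeR.

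The number of separating genes moved with single libraries. It was 4252 without S_12h replicate 3 and 1674 without WT_12h replicate 3. It was 364 and 323 without S_12h replicate 1 or 2, and 317 and 242 without WT_12h replicate 1 or 2. In a fit of these 2 groups alone, it was 61 (37 higher and 24 lower), of which 52 were among the 1572. It was 9089 without the 6 displaced libraries, and these included all 1572. The smaller sets were nearly contained in the reported one, since all 364, 322 of 323, 316 of 317 and 239 of 242 genes were among the 1572.

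**Figure D5:**
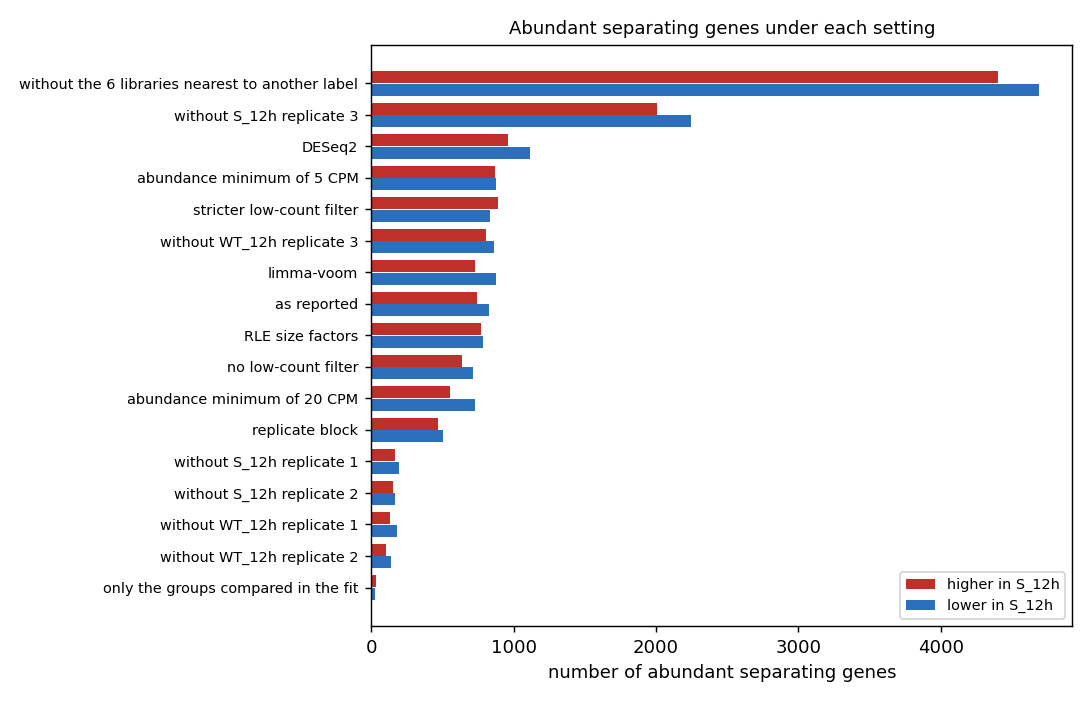
Number of abundant separating genes that were higher (upper bar) and lower (lower bar) in S_12h under each setting, ordered by their total. The totals run from 61 in a fit of these 2 groups alone to 9089 without the 6 displaced libraries (drawn as nearest to another label), with 1572 as reported.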

How the data were processed

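The values are read counts per gene, whole numbers as deposited, in 18 libraries. The submitters' processing notes name the tools HISAT2 and featureCounts and the build B73 RefGen_v4. Tool versions, the strand setting and the handling of multiply mapped reads are not stated, so near-identical, overlapping and antisense genes are uncertain. Of the counts from 1 to 20, 66.7% were even, and whether both mates of a read pair were counted is unstated.

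Group and replicate came from the titles. Genes were filtered by filterByExpr (20945 kept, 21200 without replicate 3 of both 12 h groups), libraries were scaled by TMM, and a model with 1 mean for each group covered all 18 libraries (16 without replicate 3 of both 12 h groups) with robust quasi-likelihood in edgeR 4.0.16 (limma 3.58.1, DESeq2 1.42.0, R 4.3.3). CPM uses the scaled library size. The fit was also run on simulated data, and no conclusion about these libraries is drawn from that run. Positions used log2(CPM + 0.05). The genes named were, with no names at hand, the 2 higher and 2 lower separating genes of at least 2-fold difference with the highest mean CPM. Whether same-numbered libraries of S_12h and WT_12h are paired could not be told, because replicate 3 lies apart in both groups. No 2 libraries agree within sampling noise (lowest chi-square per gene 3.93 over 153 pairs). The comparison, lists and rules were chosen with earlier results of these data known. No set test was run.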

Additional observations from a re-analysis of the deposited data

Results flagged for a closer look

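The S against WT difference depended on treatment, by the test of the difference at 12 h minus that at 0 h, in 22 genes with all libraries. Among the genes named by abundance this held for Zm00001d028998.RefGen_V4, with a difference between log2 fold changes of 1.217, and for Zm00001d002132.RefGen_V4, with -1.795. The first was called when any 1 of the 12 S and WT libraries was left out. The second was lost without any 1 of 9 of these libraries, and kept without S_12h replicate 3, S_0h replicate 3 or WT_0h replicate 2. No group had enough libraries for a test of single outlying libraries.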

How the results depend on the processing

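With all libraries, the count of 2370 genes was 4104 by DESeq2, 85 in a fit of these 2 groups alone, 12298 without the 6 displaced libraries, whose 2 nearest libraries both carry 1 other label, and 353 to 5990 when 1 library was left out. Without replicate 3 of both groups, the count of 6023 was 11924 in that smaller fit, 12298 without those 6 libraries and 1557 to 2428 when 1 more was left out, where the lone library of a group is assumed to vary like the others. The 1572 separating genes became 61 in that smaller fit, 9089 without the 6 libraries and 242 to 4252 when 1 library was left out. They were 2079 by DESeq2 and 1606 by limma-voom, 1743 at a minimum of 5 CPM and 1282 at 20 CPM. The difference of differences, 22 genes, was 838 by DESeq2, 41 with RLE size factors, 49 with the stricter filter, 149 with only the S and WT groups in the fit, 9193 without the 6 libraries, 865 without replicate 3 of both groups (chosen after seeing the data) and 2 to 1211 when 1 library was left out. S_0h against WT_0h gave 15 genes by DESeq2, 4232 without the 6 libraries and 0 when any 1 of their 6 libraries was left out. The on or off genes were 0 to 3 with all libraries and 15 to 19 without replicate 3 of both groups when 1 library was left out, and 23 with a floor of 10 counts. With the replicate number as a block, the counts were 1284 with all libraries, 974 separating genes and 2 for the difference of differences. Same-numbered libraries of S_12h and WT_12h correlated at -0.038, -0.063 and -0.079 in their deviations from the group means. Differently numbered libraries correlated at -0.075 to 0.075. Replicate 3 lies apart in both groups and sets much of these deviations. Whether the numbers pair the libraries can therefore not be told from these values. Of the calls with all libraries, 54.9% were higher in S_12h, against 65.9% in that smaller fit and 44.8% without WT_12h replicate 2. With TMM replaced by RLE the median log2 fold change moved by 0.01. Of 254 values of single genes under these settings, 205 kept direction and side of the threshold, 38 lost and 11 gained the call, and 0 changed sign. The cause of these changes was not tested.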
